A study of Mus musculus with 21 samples.

Results

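A set of 9 genes of retinoic acid supply, binding, breakdown and response was followed through chemical reprogramming of mouse fibroblasts. They were taken by gene symbol, with earlier results of these data known, and are Cyp26a1, Cyp26b1, Crabp1, Crabp2, Rbp4, Stra6, Rarb, Aldh1a2 and Dhrs3. The pathway is of interest because an agonist of the retinoic acid receptors is part of the published method. They are 9 of the 43436 genes with a value in every library. Testing was limited to the 16650 genes whose level reached 1 FPKM in 2 or more libraries, and all 9 passed this filter. The unit FPKM counts the fragments of a gene per length of its transcripts and per depth of sequencing.

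The series holds 21 RNA-seq libraries in 10 groups, and in this method small molecules replace introduced genes. The starting cells were mouse embryonic fibroblasts (MEF, 2 libraries) from E13.5 embryos of a cross between the reporter strain C57BL/6J-Tg(GOFGFP)11Imeg/Rbrc and ICR. Reprogramming intermediates of the same cross are represented by 6 libraries, of which 2 are from day 16 and the others from day 12, day 20, day 26 and day 28, each unreplicated. Chemically induced pluripotent stem cells (CiPSC, 7 libraries) came from 7 lines of that cross, namely 3 lines C (C1 to C3), 2 lines G (G1 and G3) and 2 lines N (N4 and N6). Embryonic stem cells (ESC, 2 libraries) derive from E3.5 embryos, replicate 1 from the reporter strain and replicate 2 from C57BL/6 (B6)N. XEN cells, named for extraembryonic endoderm, are the cultured form of the primitive endoderm, the first endoderm of the embryo, and both XEN groups are wild-type ICR. CeXEN cells (2 libraries) were derived from E3.5 embryos in the stage 1 reprogramming medium VC6TFAE with 20 ng/ml bFGF. eXEN is an established XEN line (2 libraries), whose replicates differ in medium: VC6TF plus 20 ng/ml bFGF for replicate 1, a conventional medium for XEN cells for replicate 2. In the published method the letter A stands for AM580, an agonist of the retinoic acid receptors, and E for an inhibitor of the histone methyltransferase DOT1L. By its medium name, CeXEN was therefore the XEN group with the agonist in its medium. CeXEN and eXEN also differ in the inhibitor E, in derivation and in line, and eXEN replicate 2 differs in the rest of the medium too. These cannot be told apart. The labels do not give the medium of each reprogramming day or of the pluripotent lines. Nor do they say that replicates were separate cultures, so p-values measure only the spread between these libraries. That spread may be technical in MEF, day 16 and CeXEN, but it takes in 2 media in eXEN, 2 strains in ESC and 7 lines in CiPSC. Comparisons of groups pool the spread over all of these, and CiPSC, the largest group, weighs most in it.

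Retinol travels in blood on Rbp4, enters cells through the receptor Stra6 and is oxidised in 2 steps, by retinol dehydrogenases and by retinaldehyde dehydrogenases such as Aldh1a2, to retinoic acid. Retinoic acid is carried in the cell by Crabp1 and Crabp2, binds nuclear receptors such as Rarb, and is oxidised for removal by Cyp26 enzymes. Several of these genes, above all Cyp26a1, Rarb and Dhrs3, are textbook targets of the receptors, so that the pathway limits its own signal. Rbp4 is also a product of visceral endoderm and liver, and Crabp1 of embryonic mesenchyme and neural crest.

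The receptors bind direct repeats of a hexamer, and the promoters of the genes were searched for such repeats. The hexamers searched were AGGTCA and its variants AGTTCA as well as GGTTCA and also GGGTCA, in any combination, with 5, 2 or 1 bases between them, on both strands. Windows ran from 250 bases before to 50 bases after a RefSeq transcript start (GRCm38.p6, the assembly of mm10), and 8 of the 9 genes had at least 1 window, 14 windows in all. Crabp2 had none. A repeat with a spacing of 5 was found in 2 of the 14 windows, 1 of Cyp26a1 and 1 of Rarb, and none with a spacing of 2 or 1. Over 32817 windows of all genes, 0.0975% held a spacing of 5, 0.268% a spacing of 2 and 0.222% a spacing of 1. The 2 stretches are shown because the search found a match in them, with the hexamers in capitals. They read 5′ to 3′ on the strand of the gene, Cyp26a1 from chr19:37697751-37697807 (plus strand, positions -57 to -1 from the start) and Rarb from chr14:16575488-16575554 (minus strand, positions -78 to -12).
Cyp26a1: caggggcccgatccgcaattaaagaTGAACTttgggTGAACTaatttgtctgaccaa
Rarb: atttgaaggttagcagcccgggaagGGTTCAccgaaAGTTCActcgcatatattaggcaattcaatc
The repeat of Cyp26a1 lies on the opposite strand at positions -32 to -16, and that of Rarb on the gene's strand at positions -53 to -37. A match is a description of the letters, not evidence of binding, and a window without one says nothing about sites elsewhere.

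Library totals ranged from 543198 to 864945 FPKM, and 11240 to 13982 genes had an FPKM of at least 1. Depth, estimated from the quantifier's bounds at low genes, ran from 0.401 (CiPSC C3) to 1.57 (CiPSC N4) times that of ESC replicate 1. The 4 libraries of day 12, day 16 replicate 1, day 20 and day 26 carry low-data entries of the quantifier that no other library has. The summed FPKM of 12 XEN markers was 3313 to 7224 in the intermediates, 7868 to 8403 in CeXEN and 5092 to 14535 in eXEN, against 1842 to 2952 in MEF and 146 to 287 in ESC and CiPSC. The sum of 10 pluripotency markers was 4687 to 5844 in ESC and CiPSC and 25.5 to 27.3 in MEF, and 12 of 12 fibroblast markers reached an FPKM of 1 in both MEF libraries. In bulk RNA, fewer cells of a type and less RNA per cell cannot be told apart.

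**Figure D1:**
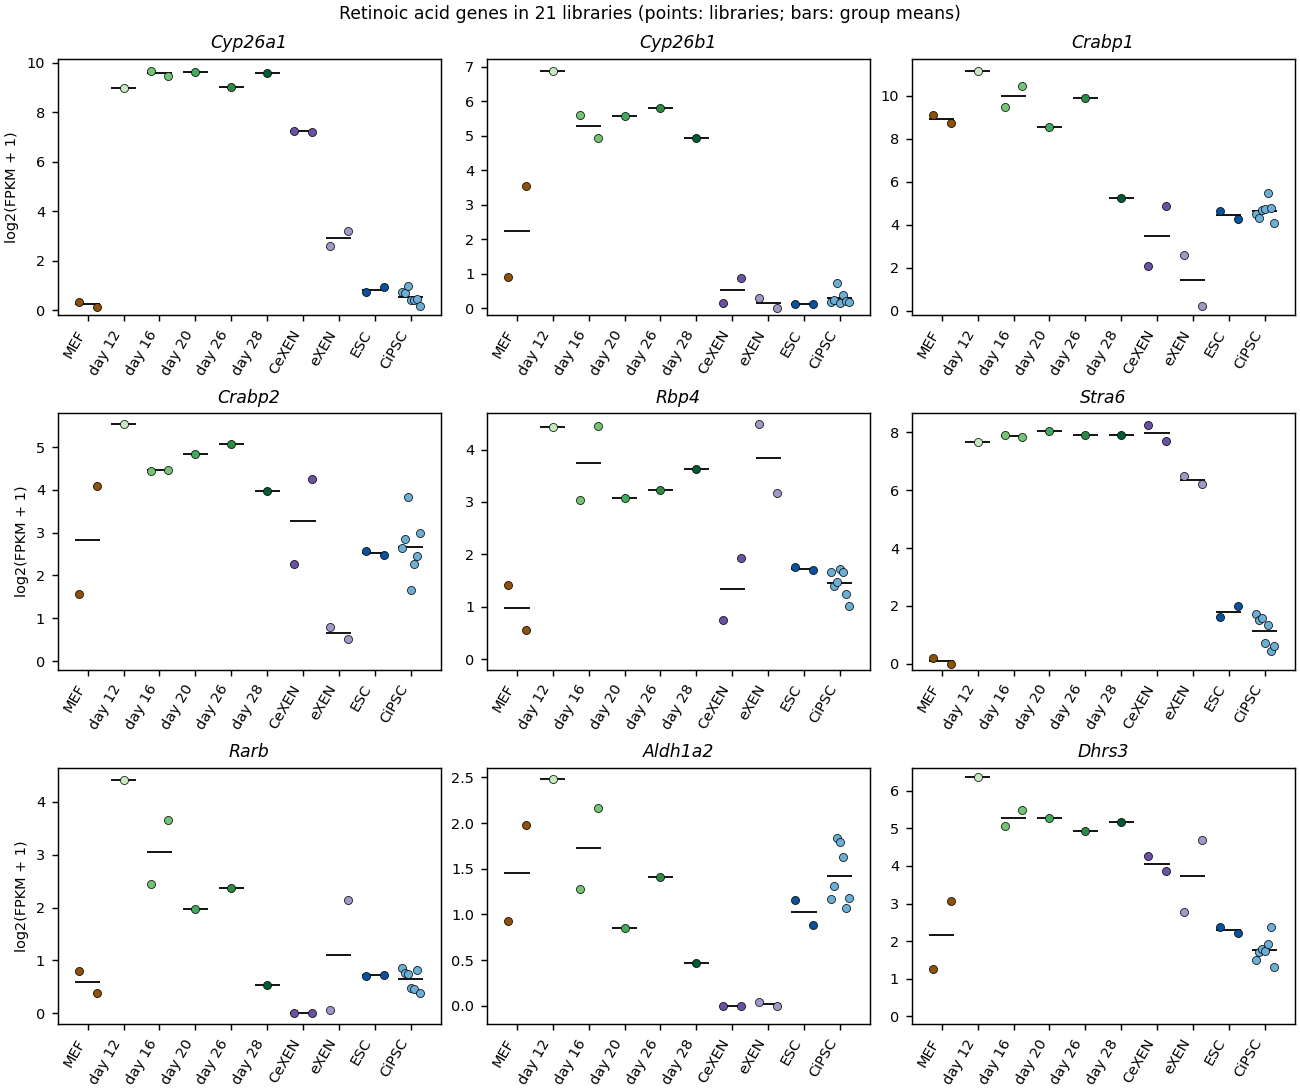
Levels of the 9 genes as log2(FPKM + 1) on the vertical axis in the 10 groups on the horizontal axis, with 1 point per library and a bar at the group mean. Cyp26a1 and Stra6 are high in every intermediate library and near 0 in MEF, with CeXEN above eXEN in both genes.

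The 2 genes of retinol supply had unlike patterns. Stra6 (ENSMUSG00000032327, mm10 chromosome 9, 58063788 to 58153996, plus strand), the membrane receptor that takes up retinol from Rbp4, measured 0.148 and 0 FPKM in MEF, 203 at day 12, 239 and 229 at day 16, 265 at day 20, 238 at day 26 and 240 at day 28. It measured 301 and 206 FPKM in CeXEN, 88.0 and 72.3 in eXEN and 2.05 and 3.01 in ESC, and over the 7 CiPSC lines the lowest, median and highest values were 0.357, 1.54 and 2.32. Intermediates and CeXEN overlapped at the top, eXEN stood below both, and the pluripotent and fibroblast libraries lay lowest.

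Rbp4 (ENSMUSG00000024990, chromosome 19, 38116620 to 38125321, minus strand), the retinol carrier, measured 1.66 and 0.464 FPKM in MEF, 20.7 at day 12, 7.18 and 20.7 at day 16, 7.39 at day 20, 8.43 at day 26 and 11.4 at day 28. In eXEN it measured 21.5 and 8.01 FPKM, in CeXEN 0.682 and 2.80, in ESC 2.38 and 2.23, and in CiPSC 1.01, 1.76 and 2.30 (lowest, median and highest). The intermediate and eXEN libraries overlapped and all exceeded every MEF, CeXEN, ESC and CiPSC library. A list of visceral endoderm and liver markers held 11 genes besides Rbp4, and these 11 summed to 23.0 to 49.5 FPKM in the intermediates. Their sums were 25.7 and 14.0 FPKM in eXEN, 16.2 and 25.6 in CeXEN and 1.69 and 1.67 in MEF, so eXEN and CeXEN overlapped. Of the full list of 12, Rbp4 included, 7 reached an FPKM of 1 at day 12 and 4 in both day 16 libraries. At day 20 the count was 6, and at day 26 and day 28 it was 7. Among the secreted products of the list in the intermediates, Afp was at most 0.299 FPKM, Ttr at most 0.883, Alb at most 0.26 and Apob at most 0.256. Apoa1 measured 1.82 at day 12, 0.151 to 0.742 at day 16, 3.54 at day 20 and day 26 and 26.7 at day 28, and Apoa4 4.88 at day 28. Trf measured 1.19 to 4.28 FPKM in the intermediates and Apom 0.259 to 2.40. The remaining markers were Cubn at 3.60 to 31.1 FPKM, Hnf4a at 2.49 to 13.1 and Amn at 0.048 to 5.18. In eXEN, Apoa1 was at most 0.137 FPKM, Afp at most 0.384 and Ttr at most 1.79, whereas Hnf4a measured 4.67 to 7.99 and Cubn 3.46 to 19.8. The part of such cells in the Rbp4 values was not tested.

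The 2 enzymes that act on retinaldehyde also differed. Dhrs3 (ENSMUSG00000066026, chromosome 4, 144892827 to 144928209, plus strand), which reduces retinaldehyde back to retinol, measured 1.38 and 7.40 FPKM in MEF, 80.6 at day 12, 32.4 and 44.1 at day 16, 37.7 at day 20, 29.2 at day 26 and 34.7 at day 28. It measured 18.2 and 13.504 FPKM in CeXEN, 5.85 and 25 in eXEN and 4.20 and 3.63 in ESC, and 1.49, 2.33 and 4.20 in CiPSC. Every intermediate library exceeded every other library, and CeXEN lay inside the range of eXEN.

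Aldh1a2 (ENSMUSG00000013584, chromosome 9, 71215789 to 71296243, plus strand), which makes retinoic acid from retinaldehyde, was low throughout. It measured 0.902 and 2.95 FPKM in MEF, 4.58 at day 12, 1.43 and 3.5 at day 16, 0.798 at day 20, 1.66 at day 26 and 0.380 at day 28. It is listed at 0 in both CeXEN libraries and in eXEN replicate 2, at 0.0293 FPKM in eXEN replicate 1, at 1.24 and 0.848 in ESC, and at 1.10, 1.48 and 2.56 in CiPSC. Fibroblasts, intermediates and pluripotent cells overlapped, and only the XEN libraries lay below all of the others.

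The 2 retinoic acid carriers stood at different heights. Crabp1 (ENSMUSG00000032291, chromosome 9, 54764748 to 54773110, plus strand) measured 552 and 423 FPKM in MEF, 2297 at day 12, 721 and 1429 at day 16, 376 at day 20, 957 at day 26 and 36.6 at day 28. It measured 3.22 and 28.5 FPKM in CeXEN, 5 and 0.186 in eXEN, 24.2 and 18.1 in ESC, and 16.0, 24.8 and 43.0 in CiPSC. The day 28 library stood about where the CiPSC lines stood, whereas day 12, day 16 and day 26 exceeded the fibroblasts and day 20 lay just below them.

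Crabp2 (ENSMUSG00000004885, chromosome 3, 87948666 to 87953376, plus strand), which hands retinoic acid to its nuclear receptors, measured 1.99 and 16.1 FPKM in MEF, 45.4 at day 12, 20.9 and 21 at day 16, 27.7 at day 20, 32.7 at day 26 and 14.6 at day 28. It measured 3.82 and 18.2 FPKM in CeXEN, 0.731 and 0.430 in eXEN, 4.93 and 4.55 in ESC, and 2.17, 5.28 and 13.3 in CiPSC. The replicates of MEF and of CeXEN differed widely, so the intermediates overlapped both groups, and eXEN was lower than every other library.

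Cyp26a1 (ENSMUSG00000024987, chromosome 19, 37697808 to 37701528, plus strand), the main retinoic acid hydroxylase of the early embryo, measured 0.275 and 0.0861 FPKM in MEF, 507 at day 12, 819 and 714 at day 16, 784 at day 20, 515 at day 26 and 779 at day 28. CeXEN measured 152 and 146 FPKM, eXEN 5.05 and 8.26, ESC 0.669 and 0.907, and CiPSC 0.119, 0.366 and 0.955. The levels fell into separate tiers, with the intermediates above CeXEN, CeXEN above eXEN and eXEN above all fibroblast and pluripotent libraries, while ESC and CiPSC overlapped, as did CiPSC and MEF.

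Cyp26b1 (ENSMUSG00000063415, chromosome 6, 84571414 to 84593908, minus strand), another hydroxylase of the family, measured 0.889 and 10.6 FPKM in MEF, 116 at day 12, 47.8 and 29.8 at day 16, 46.5 at day 20, 54.4 at day 26 and 29.5 at day 28. It measured 0.123 and 0.823 FPKM in CeXEN, 0.229 and 0.0128 in eXEN, 0.1 and 0.0862 in ESC, and 0.108, 0.150 and 0.668 in CiPSC. Unlike Cyp26a1, it did not separate CeXEN from eXEN, and both XEN groups overlapped the pluripotent lines.

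Rarb (ENSMUSG00000017491, chromosome 14, 16430842 to 16575472, minus strand), the receptor gene with the repeat shown above, measured 0.747 and 0.310 FPKM in MEF, 20.4 at day 12, 4.45 and 11.7 at day 16, 2.94 at day 20, 4.16 at day 26 and 0.444 at day 28. It is listed at 0 in both CeXEN libraries and measured 0.0427 and 3.43 FPKM in eXEN, 0.636 and 0.662 in ESC, and 0.299, 0.668 and 0.819 in CiPSC. The day 12 library was highest and the day 28 library was inside the range of MEF and CiPSC.

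The first comparison asked what separated cells at day 16, the only replicated day, from the fibroblasts. Of the 9 genes, 6 rose, namely Cyp26a1, Stra6, Dhrs3, Cyp26b1, Rbp4 and Rarb, and none fell. Genes were called where the adjusted p was below 0.05 and the log2 change was 1 or more in size, and changes are differences in log2(FPKM + 1), which understate changes of genes near 0. The background was 13.3% of tested genes called higher and 7.41% called lower. The median change of the 9 was 2.76, and that of all tested genes was 0.215. Scaling shifts that last value, to -0.02 with quantile normalization and 0.002 with median-of-ratios scaling, and turns the genome-wide split from 2219 higher and 1233 lower to 1558 and 1758 or 1575 and 1762.

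Cyp26a1 rose by 9.35 ± 0.26 (log2 difference ± SE, limma, adjusted p = 3.13e-11), from 0.181 ± 0.134 FPKM (SD, n = 2) to 766 ± 74. Stra6 rose by 7.78 ± 0.39 (limma, adjusted p = 8.07e-09). These 2 genes were thus close to 0 in both fibroblast libraries and among the highest members in both day 16 libraries.

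Dhrs3 rose by 3.12 ± 0.57 (limma, adjusted p = 0.00104), Cyp26b1 by 3.05 ± 0.57 (adjusted p = 0.00115), Rbp4 by 2.76 ± 0.51 (adjusted p = 0.00111) and Rarb by 2.46 ± 0.50 (adjusted p = 0.00223). In each of these 4 genes both day 16 libraries exceeded both MEF libraries. Crabp2, at 1.62 ± 0.76 (adjusted p = 0.131), and Crabp1, at 1.07 ± 0.78 (adjusted p = 0.342), did not pass, nor did Aldh1a2 at 0.27 ± 0.37 (adjusted p = 0.658). Crabp2 turned on 1 fibroblast library: without MEF replicate 2 its difference was 2.88 (adjusted p = 0.0172). A fit to these 4 libraries alone called none of the 9 genes, and its smallest adjusted p over all genes was 0.0531, so these calls rest on the spread taken over all groups.

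**Figure D2:**
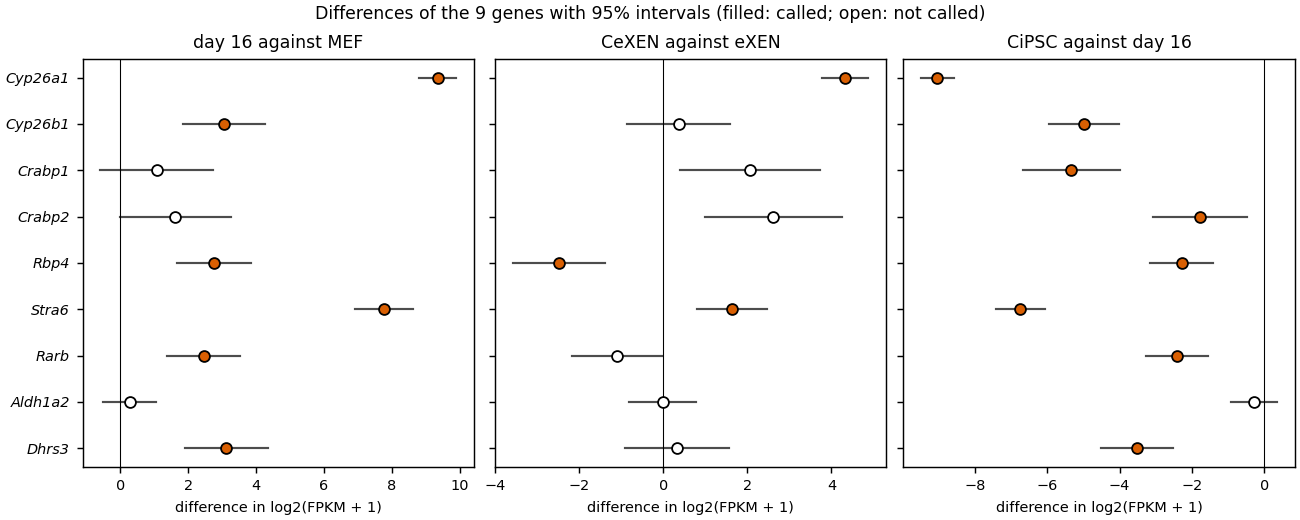
Differences in log2(FPKM + 1) on the horizontal axis for each of the 9 genes on the vertical axis, with 95% intervals of the limma fit and 1 panel per comparison of groups, filled where called. Cyp26a1 has the largest difference in the comparisons of day 16 with MEF (9.35) and of CiPSC with day 16 (-9.03).

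Across the intermediate days the values took different courses. Stra6 lay between 203 and 265 FPKM and Cyp26a1 between 507 and 819 FPKM, with changes over the 16 days of 0.17 ± 0.16 (95% interval -0.22 to 0.56) and 0.10 ± 0.37 (-0.84 to 1.03) on the log2 scale. Rarb, Crabp1 and Aldh1a2 were each highest at day 12 and lowest at day 28. Their trends were -2.97 ± 0.79 (adjusted p = 0.184), -4.07 ± 1.52 (adjusted p = 0.233) and -1.52 ± 0.55 (adjusted p = 0.225) by limma. None of them passed: the trend over 6 libraries called 0 of 16650 genes (0%), although 3349 genes and these 3 members had an unadjusted p under 0.05. On simulated data the same fit recovered 31% of changes of 2 log2 units over the 16 days.

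The remaining members lay between. Dhrs3, Cyp26b1 and Crabp2 were also highest at day 12, with trends of -0.94 ± 0.41, -0.97 ± 0.67 and -0.68 ± 0.54 (limma, adjusted p = 0.272, 0.452 and 0.507), and Rbp4 had a trend of -0.79 ± 0.65 (adjusted p = 0.528). Cyp26a1, Stra6 and Rbp4 were not highest at day 12, although Rbp4 was level at day 12 and in day 16 replicate 2. Day 12 is 1 library, and how many of all tested genes were highest there was not computed.

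Fibroblast markers moved along the same days. The sum of 12 fibroblast markers was 922 FPKM at day 12, 255 and 518 at day 16, 90.3 at day 20, 156 at day 26 and 19.7 at day 28, with 12 of 12 at an FPKM of at least 1 at day 12 and 5 of 12 at day 28, and none at 0. Over these 6 libraries Rarb followed exactly that order, and it was the only one of the 9 genes to do so. Crabp1 and Aldh1a2 departed from the order only in that day 26 exceeded day 16 replicate 1 (957 against 721 FPKM and 1.66 against 1.43 FPKM). In MEF, however, where the fibroblast sum was 3517 and 11523, Rarb measured only 0.747 and 0.310 FPKM. Crabp1 measured 552 and 423 FPKM there, and Aldh1a2 0.902 and 2.95 FPKM. The part of remaining fibroblasts in these values was not tested.

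**Figure D3:**
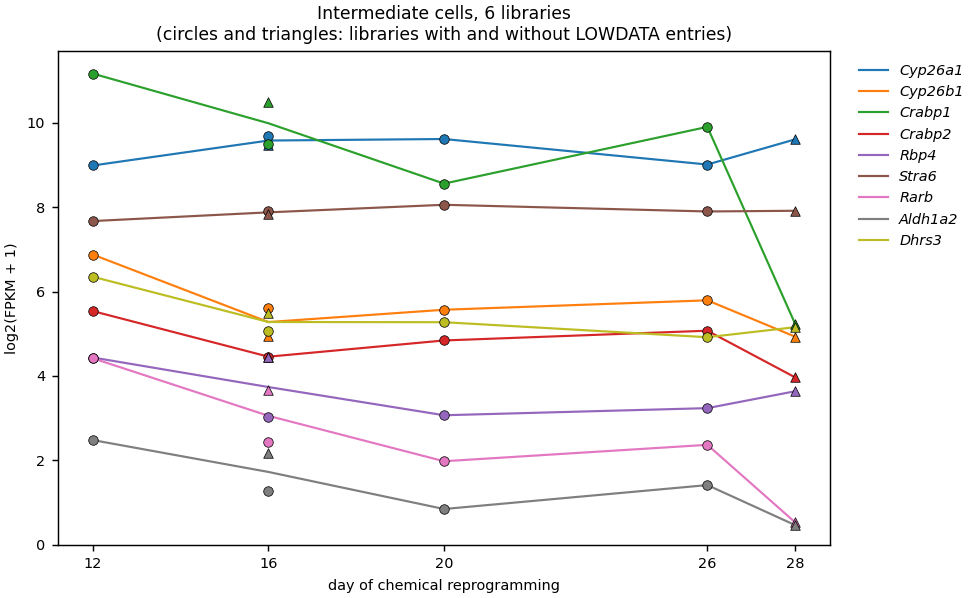
Levels of the 9 genes as log2(FPKM + 1) against the day of reprogramming in the 6 intermediate libraries, with points for libraries and lines through the mean of each day. Stra6 lies between 203 and 265 FPKM and Cyp26a1 between 507 and 819 FPKM with lower values at day 12 and day 26, whereas Crabp1 goes from 2297 FPKM at day 12 to 36.6 FPKM at day 28 and Rarb from 20.4 to 0.444 FPKM.

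The comparison of CeXEN with eXEN set embryo-derived cells in the full stage 1 medium against the established line. Cyp26a1 and Stra6 rose and Rbp4 fell, so 2 of the 9 genes were higher and 1 was lower, against 4.01% and 2.46% of all tested genes. The median difference of the 9 was 0.36 and that of all genes 0.063. Genome-wide, 668 genes were higher and 409 lower, or 488 and 492 with quantile normalization.

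Cyp26a1 was higher by 4.32 ± 0.26 (limma, adjusted p = 2.14e-07), at 149 ± 4.58 FPKM in CeXEN and 6.66 ± 2.27 in eXEN (SD, n = 2 each). It remained called without any single library, but not in a fit to these 4 libraries alone, which called none of the 9 genes (adjusted p = 0.13 for Cyp26a1).

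Stra6 was higher by 1.63 ± 0.39 (limma, adjusted p = 0.0209), a call that was lost with a pseudocount of 0.1 (adjusted p = 0.179), with quantile normalization (0.0825), without CeXEN replicate 1 (0.0905) and without eXEN replicate 2 (0.134). Rbp4 was lower by -2.49 ± 0.51 (adjusted p = 0.00822), and this call was lost without CeXEN replicate 1 (-1.91, adjusted p = 0.0506) and without eXEN replicate 1 (-1.83, adjusted p = 0.0648). Of the 3 genes, Cyp26a1 alone thus held in each fit that left out 1 library.

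Several differences that did not pass hung on single libraries. Crabp2 differed by 2.61 ± 0.76 (limma, adjusted p = 0.0509) and passed without CeXEN replicate 1 (3.61, adjusted p = 0.0125), with a pseudocount of 0.1 (adjusted p = 0.0184) and with median-of-ratios scaling (0.0382). Crabp1 differed by 2.06 ± 0.78 (adjusted p = 0.131) and passed without CeXEN replicate 1 (3.47, adjusted p = 0.00678) or without eXEN replicate 1 (3.23, adjusted p = 0.0246). Rarb differed by -1.10 ± 0.50 (adjusted p = 0.221) and passed without eXEN replicate 1 (-2.15, adjusted p = 0.0043). CeXEN replicate 1 is the CeXEN library with less Crabp1, Crabp2 and Rbp4. The sum of the 12 fibroblast markers was 7.17 FPKM there and 47.2 FPKM in CeXEN replicate 2, against 8 and 2.70 in eXEN, and its part in these values was not tested.

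The 2 eXEN libraries differ in medium, with 1 library for each, so their values are set side by side with no test. In VC6TF with bFGF and in conventional medium, respectively, Cyp26a1 measured 5.05 and 8.26 FPKM and Stra6 88.0 and 72.3. Rbp4 measured 21.5 and 8.01 FPKM and Crabp1 5 and 0.186. Dhrs3 measured 5.85 and 25 FPKM, and Rarb 0.0427 and 3.43. Rbp4 and Crabp1 were thus higher in the chemical medium, and Dhrs3 and Rarb higher in the conventional one. In neither library did Cyp26a1 come near the CeXEN values.

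**Figure D4:**
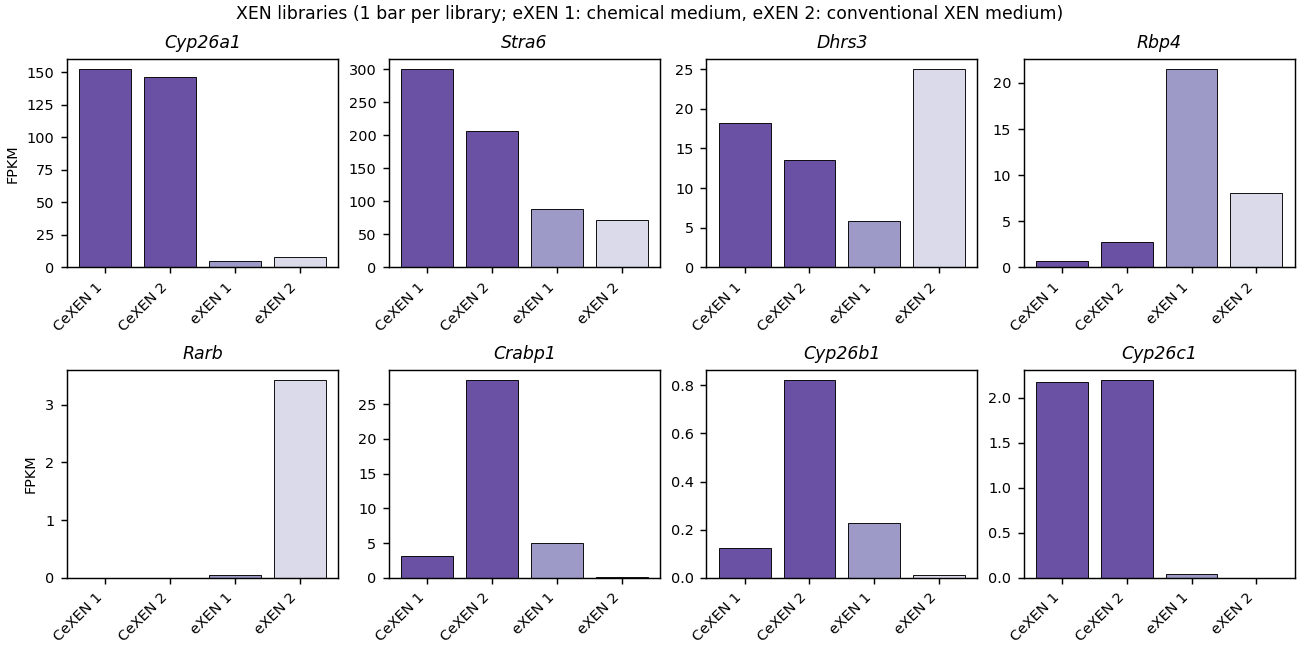
FPKM on the vertical axis in the 4 XEN libraries on the horizontal axis, 1 bar per library and 1 panel per gene. The genes are Cyp26a1, Stra6, Dhrs3, Rbp4, Rarb, Crabp1, Cyp26b1 and Cyp26c1, the last not a member of the set. Cyp26a1 is at 152 and 146 FPKM in CeXEN against 5.05 and 8.26 in eXEN, and Dhrs3 and Rarb are higher in eXEN replicate 2 than in eXEN replicate 1.

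Day 16 cells were then set against both XEN groups, comparisons that share the day 16 libraries with each other and with the other day 16 comparisons. Against CeXEN, 6 of the 9 genes were higher and none lower, where 9.11% of all genes were higher and 2.18% lower. The median difference was 2.35, against 0.133 over all genes, and genome-wide counts of 1516 higher and 363 lower became 827 and 610 with quantile normalization and 1321 and 592 with median-of-ratios scaling. Crabp1 differed most, by 6.51 ± 0.78 (limma, adjusted p = 8.44e-05), then Cyp26b1 by 4.76 ± 0.57 (adjusted p = 8.44e-05), Rbp4 by 2.40 ± 0.51 (adjusted p = 0.00619) and Cyp26a1 by 2.35 ± 0.26 (adjusted p = 4.54e-05).

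Rarb and Aldh1a2 were called against CeXEN libraries listed at 0 (limma, adjusted p = 0.000967 and 0.00639), so no fold is given for them. Stra6 differed by -0.09 ± 0.39 (95% interval -0.93 to 0.76, adjusted p = 0.948), and Crabp2 and Dhrs3 by 1.19 ± 0.76 and 1.22 ± 0.57 (adjusted p = 0.341 and 0.185). Stra6 was thus the member with the smallest difference between day 16 and CeXEN cells, and its sign turned with quantile normalization (0.14). The Rbp4 call was lost without CeXEN replicate 1 (1.81, adjusted p = 0.0622) or day 16 replicate 2 (1.69, adjusted p = 0.0799), and the Aldh1a2 call without day 16 replicate 2 (adjusted p = 0.0702). A fit to these 4 libraries alone called none of the 9 genes.

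Against eXEN, 7 of the 9 genes were higher at day 16 and none lower, where 14.0% of all genes were higher and 3.17% lower, with a median difference of 1.95 against 0.235 over all genes. Genome-wide counts of 2326 higher and 527 lower became 1349 and 1189 with quantile normalization and 1947 and 875 with median-of-ratios scaling. Crabp1 differed by 8.57 ± 0.78 (limma, adjusted p = 3.86e-06), Cyp26a1 by 6.68 ± 0.26 (adjusted p = 9.04e-10), Cyp26b1 by 5.12 ± 0.57 (adjusted p = 2.41e-05) and Crabp2 by 3.80 ± 0.76 (adjusted p = 0.00244). Rarb (1.95 ± 0.50, adjusted p = 0.0122), Aldh1a2 (1.70 ± 0.37, adjusted p = 0.00427) and Stra6 (1.54 ± 0.39, adjusted p = 0.0116) differed less.

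Rbp4, at -0.10 ± 0.51 (95% interval -1.19 to 1.00, limma, adjusted p = 0.951), and Dhrs3, at 1.54 ± 0.57 (adjusted p = 0.0684), did not pass. Dhrs3 passed without eXEN replicate 2 (2.50, adjusted p = 0.0113). The Rarb call was lost without day 16 replicate 2 (adjusted p = 0.122), without eXEN replicate 1 (0.129) and with quantile normalization (0.0595). That of Stra6 was lost without day 16 replicate 1 (0.0635), without eXEN replicate 2 (0.0822) and with a pseudocount of 0.1 (0.124). A fit to the 4 libraries alone called 4 of the 9 genes.

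The established line was also compared with ESC, both being derivatives of the early embryo. Stra6, Rbp4 and Cyp26a1 were higher in eXEN and Crabp1 and Aldh1a2 lower, 3 and 2 of the 9 genes, where 9.78% of all genes were higher and 18.4% lower. The median difference was 0.38 for the 9 genes and -0.258 for all genes, and the genome-wide counts of 1628 higher and 3057 lower became 2347 and 2130 with quantile normalization and 2073 and 2489 with median-of-ratios scaling.

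Stra6 differed by 4.53 ± 0.39 (limma, adjusted p = 1.17e-06), Rbp4 by 2.11 ± 0.51 (adjusted p = 0.00524), Cyp26a1 by 2.07 ± 0.26 (adjusted p = 3.35e-05), Crabp1 by -3.04 ± 0.78 (adjusted p = 0.00715) and Aldh1a2 by -1 ± 0.37 (adjusted p = 0.046). Aldh1a2 lay at the threshold and was lost when any 1 of the 4 libraries was left out, with quantile normalization (adjusted p = 0.117) and with median-of-ratios scaling (-0.97). The Crabp1 call was lost without eXEN replicate 2 (-1.87, adjusted p = 0.114) and the Rbp4 call without eXEN replicate 1 (1.45, adjusted p = 0.0671). A fit to these 4 libraries alone also lost both (adjusted p = 0.0941 and 0.0728) and called Crabp2 lower (adjusted p = 0.0214).

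The differences that did not pass were those of Dhrs3 (1.44 ± 0.57, limma, adjusted p = 0.062), Crabp2 (-1.87 ± 0.76, adjusted p = 0.068), Rarb (0.38 ± 0.50, adjusted p = 0.593) and Cyp26b1 (0.03 ± 0.57, adjusted p = 0.991). Dhrs3 passed with quantile normalization (adjusted p = 0.0345), with median-of-ratios scaling (0.0455) and without eXEN replicate 1 (0.00572), the library with its lower value. Crabp2 passed with a pseudocount of 0.1 (0.0182), and Rarb without eXEN replicate 1 (1.43, adjusted p = 0.0153).

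At the end of the process, 8 of the 9 genes were lower in CiPSC than at day 16 and none higher, where 17.0% of all genes were lower and 13.0% higher. The median difference was -3.52, against -0.021 over all genes. The falls on the log2 scale were -9.03 ± 0.21 for Cyp26a1 (limma, adjusted p = 1.79e-12), -6.74 ± 0.32 for Stra6 (adjusted p = 1.11e-09), -5.34 ± 0.62 for Crabp1 (adjusted p = 9.67e-06) and -4.98 ± 0.46 for Cyp26b1 (adjusted p = 9.26e-07). They were -3.52 ± 0.46 for Dhrs3 (adjusted p = 2.67e-05), -2.41 ± 0.40 for Rarb (adjusted p = 0.000227) and -2.29 ± 0.41 for Rbp4 (adjusted p = 0.00041).

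Crabp2 fell by 1.78 (SE 0.61, limma, adjusted p = 0.0262), a call lost without day 16 replicate 1 (adjusted p = 0.135), without day 16 replicate 2 (0.119) and with no filter on low values (0.0538). Aldh1a2 differed by -0.30 ± 0.30 (adjusted p = 0.426). For each of the 8 genes that fell, every CiPSC line lay below both day 16 libraries.

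Against ESC, none of the 9 genes was called in CiPSC, where 0.0360% of all genes were called higher and 0.0240% lower. None of the 9 had an unadjusted p under 0.05 by limma, against 1412 of all tested genes. Adjusted p-values ran from 0.592 for Stra6 to 1 for Rarb, and the differences from -0.67 (Stra6, 95% interval -1.35 to 0.01) to 0.40 (Aldh1a2, -0.23 to 1.04). For Cyp26a1 the difference was -0.28 (95% interval -0.73 to 0.16) and for Crabp1 0.20 (-1.14 to 1.53). These intervals leave room for changes of more than 1 log2 unit in several of the genes, Crabp1 among them, so the test does not show equal levels.

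The rest of the pathway was followed in 97 other genes of retinoid carriage, storage, synthesis, breakdown, reception and response, of which 95 are in the files and 73 were tested. At day 16, 16 of the 73 (21.9%) were higher than in MEF and 6 (8.22%) lower by limma, where 13.3% and 7.41% of all genes were. Their median of 0.07 was below that of all genes, 0.215. Among the 28 tested response genes 8 rose, none fell and 20 were not called, with a median of 0.05. The 8 included the endoderm transcription factor Foxa2 (5.99 ± 0.26, limma, adjusted p = 1.5e-09) and the homeobox gene Gbx2 (5.11 ± 0.75, adjusted p = 0.000171). Foxa2 is also a gene of endoderm itself and was high in eXEN as well, with a mean of 109 FPKM against 73.1 at day 16.

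Of the 3 tested synthesis enzymes other than Aldh1a2, 2 rose and 1 fell at day 16. Aldh1a1 rose by 3.32 ± 0.18 (limma, adjusted p = 1.51e-08) and Aldh1a7 by 2.15 ± 0.17 (adjusted p = 4.96e-07), while Aldh1a3 fell by 1.04 (SE 0.29, adjusted p = 0.0164). The Aldh1a3 call was lost without MEF replicate 2 (-0.89, adjusted p = 0.092), without day 16 replicate 2 (-0.78, adjusted p = 0.11) and with a pseudocount of 0.1 (adjusted p = 0.0919). Aldh1a1 measured 13.2 FPKM at day 12, 8.81 and 12.2 at day 16, 7.99 at day 20 and 13.0 at day 26, but 0.0844 at day 28, and it is listed at 0 in both CeXEN libraries. Its low day 28 value stood beside those of Rarb, Aldh1a2 and Crabp1.

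The third Cyp26 enzyme, Cyp26c1, was likewise high in the intermediates, at a lower level than Cyp26a1. It measured 0.120 and 0 FPKM in MEF, 13.1 at day 12, 17.6 and 16.4 at day 16, 20.2 at day 20, 16.2 at day 26 and 41.6 at day 28, then 2.17 and 2.20 in CeXEN and 0.0389 and 0 in eXEN. Its differences were 4.09 ± 0.18 between day 16 and MEF (limma, adjusted p = 2e-09) and 1.64 ± 0.18 between CeXEN and eXEN (adjusted p = 8.8e-05). Like Cyp26a1 and unlike Cyp26b1, it stood higher in both CeXEN libraries than in both eXEN libraries.

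Among the 13 tested receptors and cofactors, 3 fell at day 16 and none rose. Rarg, another retinoic acid receptor, fell by 2.45 (SE 0.47, limma, adjusted p = 0.00152) and the receptor Rara by 1.91 (SE 0.45, adjusted p = 0.00602), while Rarb rose. The Rara call was lost without MEF replicate 2 (-1.40, adjusted p = 0.0764). Rarg measured 21.8 and 45.9 FPKM in MEF, 3.30 and 7.35 at day 16, 0.640 at day 28 and 22.7 and 41.7 in ESC. The largest falls outside the receptors were those of Cyp1b1, a cytochrome that can also oxidise retinoids (-3.66 ± 0.77, adjusted p = 0.00265), and of the endocytic receptor Lrp1 (-2.90 ± 0.38, adjusted p = 7e-05).

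Between the XEN groups, 4 of the 73 (5.48%) were higher in CeXEN and 2 (2.74%) lower by limma, shares near the 4.01% and 2.46% of all genes, and their median of 0.03 was below the 0.063 of all genes. Rarres1, named for its response to a retinoid, was higher (1.85 ± 0.31, adjusted p = 0.00198), as was Cyp26c1. Fabp5, a fatty acid carrier that also binds retinoic acid, measured 70.5 and 83.6 FPKM in CeXEN but 20.8 and 0.503 in eXEN. Its difference of 3.76 ± 0.84 (adjusted p = 0.0139) was 1.84 without eXEN replicate 2 (adjusted p = 0.0984), 5.69 without eXEN replicate 1 and not called without CeXEN replicate 2 (adjusted p = 0.0915). The coactivator Ncoa1 was lower (-1.52 ± 0.41, adjusted p = 0.0361), a call lost without CeXEN replicate 1 (adjusted p = 0.111), CeXEN replicate 2 (0.101) or eXEN replicate 2 (-1, adjusted p = 0.296).

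Compared with CeXEN, day 16 cells had 22 of the 73 (30.1%) higher and 2 (2.74%) lower, against 9.11% and 2.18% of all genes, led by the alcohol dehydrogenase Adh1 (3.82 ± 0.72, limma, adjusted p = 0.0027). Compared with eXEN they had 23 (31.5%) higher and 1 (1.37%) lower, against 14.0% and 3.17% of all genes. Adh1 again led (4.53 ± 0.72, limma, adjusted p = 0.000428), and Fabp5 differed by 4.47 ± 0.84 (adjusted p = 0.00159), or by 2.54 without eXEN replicate 2 (adjusted p = 0.00953). The reductase family gene Dhrs7 was lower (-2.05 ± 0.64, adjusted p = 0.0326), a call lost when any 1 of the 4 libraries was left out (adjusted p = 0.0786 to 0.138). Adh1 measured 10.8 to 63.4 FPKM in the 6 intermediate libraries and at most 1.92 FPKM in any XEN library.

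In eXEN against ESC, 14 (19.2%) were higher and 18 (24.7%) lower, against 9.78% and 18.4% of all genes, with Foxa2 (6.67 ± 0.26, limma, adjusted p = 4.95e-10) and Stra8, a meiosis gene named for its stimulation by retinoic acid (-7.17 ± 1.03, adjusted p = 0.000101), at the extremes. CiPSC had 9 of the 73 (12.3%) higher than day 16 and 29 (39.7%) lower, against 13.0% and 17.0% of all genes, with a median of -0.80 against -0.021. Stra8 (4.95 ± 0.82, adjusted p = 0.000218), the homeobox gene Cdx1 (3.91 ± 0.58, adjusted p = 8.4e-05) and Rarg (3.25 ± 0.38, adjusted p = 9.78e-06) were higher, and Foxa2 and Zfp703 were lower by -6.03 and -5.87. Stra8 and Cdx1, both known retinoic acid targets, were thus low in the intermediates, at most 5.21 and 1.47 FPKM, where Cyp26a1 was at its highest. None of the 73 was called by limma between CiPSC and ESC or along the days, with 2 and 21 of them at an unadjusted p under 0.05.

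The genes with the most similar pattern to each member were taken by Pearson's r of log2(FPKM + 1) over the 10 group means, as a description of groups that share libraries and normalization. Stra6 was most like Sox17, an endoderm transcription factor (r = 0.9949), then Hs3st1 and Podxl (both 0.991). Cyp26a1 was most like Snx2 (0.9897), Tmem160 and S100g, and Cyp26b1 most like Gstm2 (0.9833), Dusp22 and Casq2. Aldh1a2 was most like Tbc1d2 (0.9908), Col18a1 and Sncg, and Dhrs3 most like M6pr (0.9824), Clu and Aqp1.

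For Rarb the nearest were Reg3g (0.9778), Aldh1a7 and Grp, for Crabp1 Efemp1 (0.9733), Tmem53 and Inhbb, for Crabp2 Cdk5 (0.9742), March2 and Socs1, and for Rbp4 Hmgn5 (0.9523), Laptm4b and Tmem14a. Among the members themselves, Cyp26a1 was closest to Dhrs3 (0.9428) and Stra6 (0.9306), and the least alike pair was Aldh1a2 and Stra6 (-0.1562).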

How the data were processed

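RNA was measured by sequencing in 21 libraries, and the deposited files give the authors' FPKM per gene, for which the submitters' processing notes name TopHat, Cufflinks and the build mm10 (versions and annotation release: not given in the sources used here). Read counts were not used. Values of 40 gene IDs with several loci were summed. The log2(FPKM + 1) values of the 16650 genes that passed the filter (1 FPKM or more in 2 or more libraries) were fitted with limma 3.58.1 (R 4.3.3), with 1 coefficient per group over all libraries (11 residual degrees of freedom), an intensity trend and Benjamini-Hochberg adjustment over all genes. Single libraries add no residual degrees of freedom. The trend was linear in day (6 libraries). On simulated data with 16650 genes, 83% (day 16 against eXEN) to 96% (CiPSC against day 16) of changes of 2 log2 units were recovered between groups. These changes were placed only in genes with a mean log2(FPKM + 1) above 3, so the shares do not describe low genes such as Rarb and Aldh1a2. Named genes were the 9 members, up to 3 called genes per direction from the pathway lists, with further ones (Aldh1a1, Aldh1a3, Aldh1a7, Cyp26c1 and Rara at day 16) added after their values were seen, and the 3 most similar genes per member. Some genes of the pathway lists are not reported here. The members and lists were chosen with earlier results of these data known. Alternatives covered pseudocount, filter, scaling, model, replicate block and libraries left out. Promoters are RefSeq GRCm38.p6. Python 3.11.15, numpy 2.4.6, pandas 2.3.3 and matplotlib 3.10.9 were also used.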

Additional observations from a re-analysis of the deposited data

Results flagged for a closer look

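In 3 of the 9 genes, 1 CiPSC line stood apart from the other 6 by more than the gap, as a share of the range, that Dixon's test allows at 95% for 7 libraries, where chance gives about 1 in 20 groups. Crabp1 in line G3 measured 43.0 FPKM, with a gap of 0.603 of the range. Cyp26b1 in line C3 measured 0.668 FPKM (gap 0.636), and Crabp2 in the same line measured 13.3 FPKM (gap 0.573). C3 is also the library of lowest estimated depth, at 0.401 of ESC replicate 1, and its part in these values was not tested.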

How the results depend on the processing

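With 2 libraries in most groups and 1 on 4 days, single libraries decide several values, and low FPKM values (6 of 189 member values are 0, and 19 have a lower bound of 0) limit Rarb, Aldh1a2 and Cyp26b1 in XEN and pluripotent cells. Fits to the compared groups alone, where only 4 libraries give the spread, called 0 members higher in day 16 against MEF, 0 in day 16 against CeXEN, 0 higher and 0 lower in CeXEN against eXEN, and 4 in day 16 against eXEN. Named pathway genes lost their calls in the first 3 of these comparisons as well, and Adh1 and Fabp5 in day 16 against eXEN (adjusted p = 0.0944 and 0.202). The smallest adjusted p of these fits over all genes was 0.0531, 0.0944, 0.13 and 0.0441 in that order. In these fits the genes called of all tested were 0 in each of the first 3 comparisons and 480 higher and 53 lower in day 16 against eXEN, and 996 genes were higher in eXEN against ESC. Of the members, 1 was called higher in CeXEN against eXEN with quantile normalization, and leaving out single libraries gave 1 to 3 higher and 0 to 1 lower. In eXEN against ESC the 2 lower calls became 1 with no filter, with the FPKM filter of 5, with quantile normalization and with median-of-ratios scaling, and 0 to 1 with a library left out. Over all genes, leaving out libraries moved the calls of CeXEN against eXEN between 295 and 1536 higher and 250 and 489 lower, those of day 16 against CeXEN between 932 and 1374 higher and 187 and 919 lower, and those lower in day 16 against MEF between 789 and 1353. In day 16 against eXEN these ranges were 1529 to 2522 higher and 343 to 613 lower. In CiPSC against ESC, where 6 genes were higher and 4 lower, the fit to those groups alone gave 8 and 18, and leaving out libraries gave 5 to 35 and 4 to 16.

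Directions that turned were all of differences that did not pass. With a library left out, the ranges were -0.26 to 0.80 for Aldh1a2 in day 16 against MEF, -0.36 to 0.18 for Stra6 in day 16 against CeXEN, -0.64 to 1.28 for Dhrs3 in CeXEN against eXEN and -0.80 to 0.61 for Rbp4 in day 16 against eXEN. They were -0.11 to 0.17 for Cyp26b1 and -0.66 to 1.43 for Rarb in eXEN against ESC, -0.74 to 0.15 for Aldh1a2 in CiPSC against day 16, and -0.04 to 0.32 for Crabp2 in CiPSC against ESC. The trend of Cyp26a1 ranged from -0.33 to 0.45. Quantile normalization gave -0.10 for Aldh1a2 in day 16 against MEF and 0.14 for Stra6 in day 16 against CeXEN, and a pseudocount of 0.1 gave -0.08 for Rarb in eXEN against ESC. Other alternatives were chosen after seeing the data. In the 4 libraries with low-data entries of the quantifier, the trend of Cyp26a1 was -0.09. Without day 12 and day 28, the trends were -0.88 for Cyp26a1, 0.83 for Cyp26b1 and 1.00 for Crabp2. The cause was not tested in any of these.

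Same-numbered libraries showed no strong shared deviation (correlations of -0.116 to 0.051 over 10 pairs of groups). This cannot settle whether the libraries are paired, because the eXEN libraries also differ in medium and the ESC libraries in strain. With the replicate number as a block, Rarb in CiPSC against ESC was 0.21, Crabp2 was called in CeXEN against eXEN (adjusted p = 0.0385) and not in CiPSC against day 16 (-1.37, adjusted p = 0.0821), and Dhrs3 was called in day 16 against eXEN (0.044) and in eXEN against ESC (0.0393).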

Other observations

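The spacing of 5 bases found in the promoters of Cyp26a1 and Rarb was also present in windows of other genes, 31 gene symbols in all, of which 16 are in the files and 6 were tested. These 6, looked at after their values were seen, are Blvrb, Cyp26a1, Gm4631, Ppbp, Rarb and Syndig1, and they include the 2 members that prompted the look. The other 4 were not called by limma at day 16 against MEF, with differences of 0.53 for Blvrb, 0.41 for Syndig1, -0.11 for Gm4631 and -0.88 for Ppbp. In CiPSC against day 16, Gm4631 was higher (1.95, adjusted p = 0.000144) and Ppbp lower (-1.47, adjusted p = 0.0427).

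Transcripts of 2 other genes of the pathway were close to absent in every library. Lrat, which stores retinol as an ester, reached at most 0.0583 FPKM, and Rxrg, a partner of the retinoic acid receptors, at most 0.849 FPKM. The partner Rxrb had means of 19.4 FPKM in MEF, 25.5 at day 16, 19.8 in CeXEN, 23.6 in eXEN, 22.7 in ESC and 25.6 in CiPSC.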
